A study of Mus musculus with 141 samples.

Results

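Alveolar epithelial type I (AT1) cells with a high share of mitochondrial reads were set against AT1 cells with a lower share. AT1 cells were taken as the cells in which *Ager*, a receptor gene that marks this cell type, had a level of at least 5000 CPM (read counts scaled to the same library total in each cell), which gave 64 cells and left 77 others in the count matrix. A cell was called high-mt when reads on the 37 genes of the mitochondrial genome (names starting with mt-) made up 15% or more of all its reads, and low-mt otherwise. These limits gave 19 high-mt and 45 low-mt AT1 cells. Both sides were thus chosen on measured values, and neither the mitochondrial share nor *Ager* is a finding between them.

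All cells came from 1 male *ACID;R26tdTomato* mouse of 4 months, of a strain given as 129SV in the labels and as 129S6/SvEvTac in the study's methods, and none was treated. The mouse carried 1 copy each of 2 alleles: a *Cre-IRES-DsRed* cassette in exon 1 of endogenous *Aqp5*, and a *ROSA26-stop-flox-tdTomato* reporter. Cre acts for good, so a cell that expressed *Aqp5* at any time keeps tdTomato, and the reporter labels airway and some type II cells as well as AT1 cells. Lung cells were sorted as CD31-, CD45-, E-cadherin+ and tdTomato+. They were captured singly on a Fluidigm C1 HT chip (a plate of sites read out by column and row) and sequenced. The deposited values are counts of reads, not of molecular identifiers. Cells of 1 mouse are not replicates of a condition, so no test was run, and each difference is given with the spread over cells.

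AT1 cells are the very thin cells that cover most of the gas exchange surface of the alveolus, whereas cuboidal type II (AT2) cells make surfactant. The mitochondrial genome encodes 13 subunits of the respiratory chain, 2 ribosomal RNAs and 22 transfer RNAs, and its RNA stays inside the organelle. The remaining respiratory chain subunits are encoded in the nucleus, and their mRNAs are read in the cytoplasm. *Malat1* is a long noncoding RNA that is kept in the nucleus, and the share of mitochondrial reads is in common use as a quality measure for single cells.

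The mitochondrial share ran from 15.1% to 33.04% in high-mt cells (median 19.5%) and from 4.99% to 14.8% in low-mt cells (median 10.2%). No gap separated the sides: 6 low-mt cells lay between 14% and 15%, and 5 high-mt cells between 15% and 16%. The nearest cells on either side of the limit stood at 14.8% and 15.1%. At the *Ager* limit, the nearest cell inside had 5678 CPM and the nearest outside 4696 CPM. The latter had a mitochondrial share of 35.8%, and it was the single cell outside that would have entered had *Ager* been taken as CPM of non-mitochondrial reads. High-mt cells lay in 11 columns of the chip, each of which also held a low-mt cell. Columns 1 to 10 held 8 high-mt and 26 low-mt cells, and columns 11 to 20 held 11 and 19.

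High-mt cells were sequenced less deeply. Total reads per cell ranged from 91402 to 1022879 over the 64 cells (median 426602), with medians of 316610 in high-mt and 468718 in low-mt cells. Reads outside the mitochondrial genes had medians of 259051 and 428076, whereas mitochondrial reads themselves had medians of 73563 and 41509. To set the sides on 1 depth, mitochondrial reads were left out and each cell was thinned at random to 67000 of its other reads. All CPM values from here on are of these thinned reads. A gene's log2 difference is that of its mean CPM plus 1 in high-mt cells over the same in low-mt cells. Beside it stands the share of pairs, taken over all pairs of 1 high-mt and 1 low-mt cell. It is the percentage in which the high-mt cell had more reads, with tied pairs split evenly between the sides. A value of 50% thus means no difference in rank. For a gene seen in few cells, many pairs are ties at no reads, which draw its share towards 50%. Intervals (95%) cover counting error only, and amplified reads, not counted by molecular identifier, are not independent molecules.

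The label of AT1 cell was checked with a list of 30 AT1 genes, of which *Ager* was left out because the cells were chosen by it. All 19 high-mt and all 45 low-mt cells had more than 100 CPM in at least 50% of the other 29 genes. The summed level of the 29 genes ran from 43388 to 79194 CPM in high-mt cells (median 59881) and from 44507.5 to 108985 CPM in low-mt cells (median 64015), and the high-mt cell was the higher in 40.1% of pairs. *Ager* itself, given as a description only (chr17:34597862-34600936, plus strand; all coordinates are of GRCm38) had a median of 24552 CPM in high-mt cells (lowest 7224, highest 56522) and 23910.4 CPM in low-mt cells (lowest 10209, highest 43015). The ranges of the sides overlapped for both.

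Within the mitochondrial reads, the make-up differed little between the sides. The 2 ribosomal RNAs took a median of 70.4% of mitochondrial reads in high-mt cells (55.5% to 81.2%) and 66.6% in low-mt cells (21.5% to 79.7%). The 13 mRNAs took 29.5% and 33.4%, and the transfer RNAs 0.0921% and 0.105%. For *mt-Rnr2*, the large ribosomal RNA, the share of mitochondrial reads was 40.7% in high-mt cells (20.5% to 47.8%) and 37.7% in low-mt cells (10.3% to 57.96%), with the high-mt cell higher in 58.6% of pairs. *mt-Rnr1*, the small ribosomal RNA, had a median 2.85 percentage points higher in high-mt cells, with 64.8% of pairs. *mt-Co1*, a core subunit of complex IV, took 4.11% (2.45% to 6.42%) and 4.57% (1.12% to 21.1%). The mRNA with the largest gap was *mt-Nd4*, a subunit of complex I, at 5.56% and 7.47% and with 33.5% of pairs. None of these shares separated the sides. Within the 11 chip columns that held both, the mean share of *mt-Rnr2* was higher on the high-mt side in 5, and the difference of the medians turned to -1.75 percentage points when the sides were divided at 10%. Over the 64 cells the share of *mt-Rnr2* had a Spearman correlation with the mitochondrial share of 0.02, a description over cells of 1 mouse that share a chip.

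**Figure D1:**
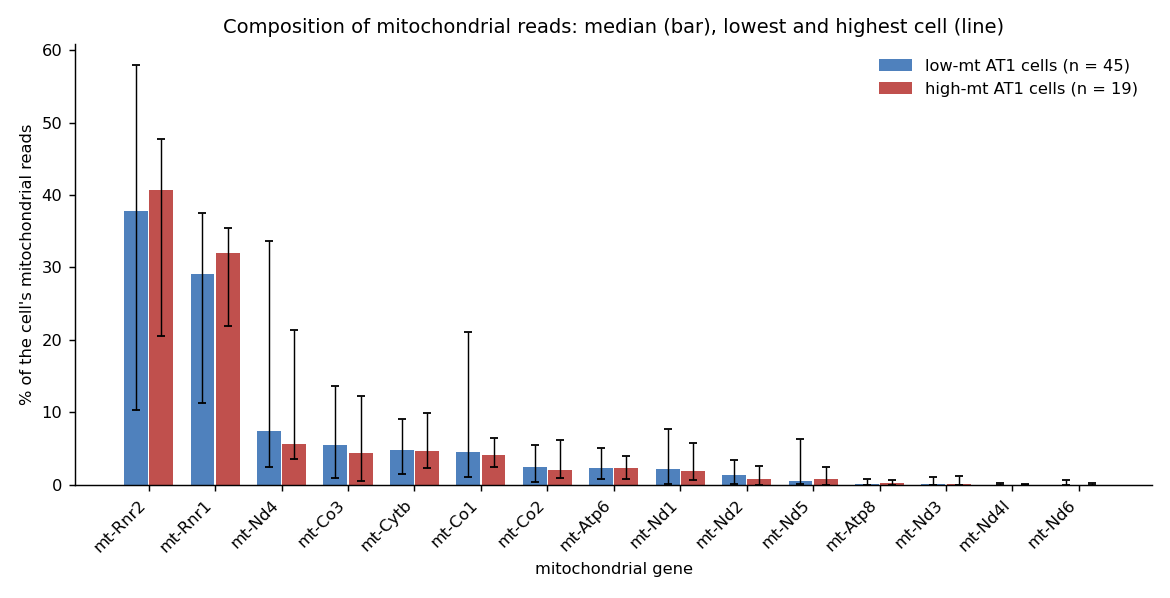
Share of each cell's mitochondrial reads (%) on the 2 ribosomal RNAs and 13 mRNAs of the mitochondrial genome, with bars for the median over 19 high-mt and 45 low-mt AT1 cells and lines from the lowest to the highest cell. The ranges of the sides overlap for each gene, with *mt-Rnr2* at medians of 40.7% and 37.7%.

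Several genes outside the mt- group are copies of mitochondrial sequence in the nuclear genome, and reads cannot be assigned to the copy or to the mitochondrion where the sequences are the same. Alignment of annotated transcripts with the 37 mitochondrial ones found the full length of *Gm10925* (chr1:24613974-24614651, minus strand, 678 bases) to be identical to *mt-Atp6*, a subunit of ATP synthase. *Gm28437* (chr1:24613189-24613971) matched *mt-Co3* over 783 bases and *Gm28661* (chr1:24614885-24615565) matched *mt-Co2* over 681 bases, both at 100%. A second block lies on chromosome 2, where *Gm13340* matched *mt-Co1* at 97.6% and *Gm13341* (chr2:22587291-22587962, minus strand) matched *mt-Co2* at 95.9%. The first 60 bases of the alignments are shown, since they make plain why the reads of some copies are uncertain and those of others can be told apart at a few bases; capitals mark mismatches within a pair, and the first pair has none.
Gm10925: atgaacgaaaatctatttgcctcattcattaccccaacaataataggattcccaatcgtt
mt-Atp6: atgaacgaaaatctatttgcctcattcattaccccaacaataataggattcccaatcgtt
Gm13341: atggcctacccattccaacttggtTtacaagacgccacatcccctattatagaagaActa
mt-Co2: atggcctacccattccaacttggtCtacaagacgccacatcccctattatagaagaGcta

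Reads on the nuclear copies followed the mitochondrial share. Together the copies took a median of 3.85% of non-mitochondrial reads in high-mt cells (1.51% to 6.36%) and 1.90% in low-mt cells (0.888% to 3.43%). The high-mt cell was the higher in 90.4% of pairs, and 12 of the 19 high-mt cells stood above every low-mt cell. *Gm10925* had a mean of 5557 CPM in high-mt and 2641 CPM in low-mt cells, a log2 difference of 1.07 (1.03 to 1.12) with 90.5% of pairs. For *Gm28437* the log2 difference was 1.04, for *Gm28661* 1.26, and for *Gm13341*, the copy with mismatches, 1.42 (1.30 to 1.54) with 82.3% of pairs. Of the 10 copies listed, 9 were measured (mean of at least 50 CPM) and all 9 had values above 0, with a median log2 difference of 1.04. *Gm11478*, listed with them, matched no mitochondrial transcript and stood at 0.95 with all cells and at -0.64 without its highest cell. Reads of the identical copies cannot be told apart from mitochondrial reads, and the whole list, with each gene that matched a mitochondrial one at 90% or more, was left out of the genes named on either side. Counting them as mitochondrial would put 26 of the 64 cells at 15% or more, 7 of them from the low-mt side.

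Over all cells, high-mt AT1 cells had more reads of *Malat1* and fewer detected genes, and both differences were smaller within chip columns. *Malat1* (chr19:5795690-5802672, minus strand) had 5657 CPM in the lowest, 43746 CPM in the median and 117687 CPM in the highest high-mt cell. In low-mt cells the lowest had 2015 CPM, the median 28552 CPM and the highest 82149 CPM. The mean was 53160.3 against 32880.3 CPM, a log2 difference of 0.69 (0.68 to 0.71), and the high-mt cell was the higher in 65.5% of pairs. The sides overlapped broadly, although 13 of the 19 high-mt cells lay above the low-mt median and 5 above every low-mt cell. Without the highest cell the difference was 0.59, and the parts of the chip gave 0.60 (columns 1 to 10) and 0.80 (columns 11 to 20). Under each scaling tried it stayed above 0, between 0.49 and 1.38. Within the 11 chip columns that held both sides (19 high-mt and 21 low-mt cells), the high-mt mean was the higher in 8, with a mean log2 difference over columns of 0.22, a median of 0.52 and a range from -2.70 to 1.83.

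Of the other RNAs that stay in the nucleus, *Neat1* was near 0 over all cells, and *Kcnq1ot1* and *Tug1* were lower with the limit at 15%. *Neat1*, the scaffold of paraspeckles, had means of 4114 and 3698 CPM, a log2 difference of 0.15 that turned to -0.16 without its highest cell. Its medians in cells with a mitochondrial share under 10%, of 10% to 15%, of 15% to 20% and of 20% or more were 2299, 3052, 2127 and 3493 CPM, the highest in the last. *Kcnq1ot1*, an imprinted antisense RNA, had a log2 difference of -1.03 and was seen in 6 of 19 and 21 of 45 cells. *Tug1* stood at -3.39, in 2 and 9 cells. With the sides divided at 10%, however, *Tug1* was 2-fold or more higher. *Kcnq1ot1* was not past 2-fold at 10% or at 20%.

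Detected genes, those with at least 1 of the 67000 reads, numbered 870 in the lowest, 1472 in the median and 2244 in the highest high-mt cell. In low-mt cells the lowest had 960, the median 1809 and the highest 2773. The medians stand in a ratio of 0.814, and 16 of the 19 high-mt cells lay below the low-mt median. With at least 3 reads asked for, the medians were 998 and 1339 genes and 18 of 19 high-mt cells lay below the low-mt median. Without thinning, 2154 and 2731 genes were detected. Within the 11 chip columns, however, the mean number was higher on the high-mt side in 5, and the mean difference over columns stood for a ratio of 0.941. The 10 genes with the most reads in each cell held a median of 17.6% of its thinned reads in high-mt cells, 1.35 times the median of low-mt cells.

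**Figure D2:**
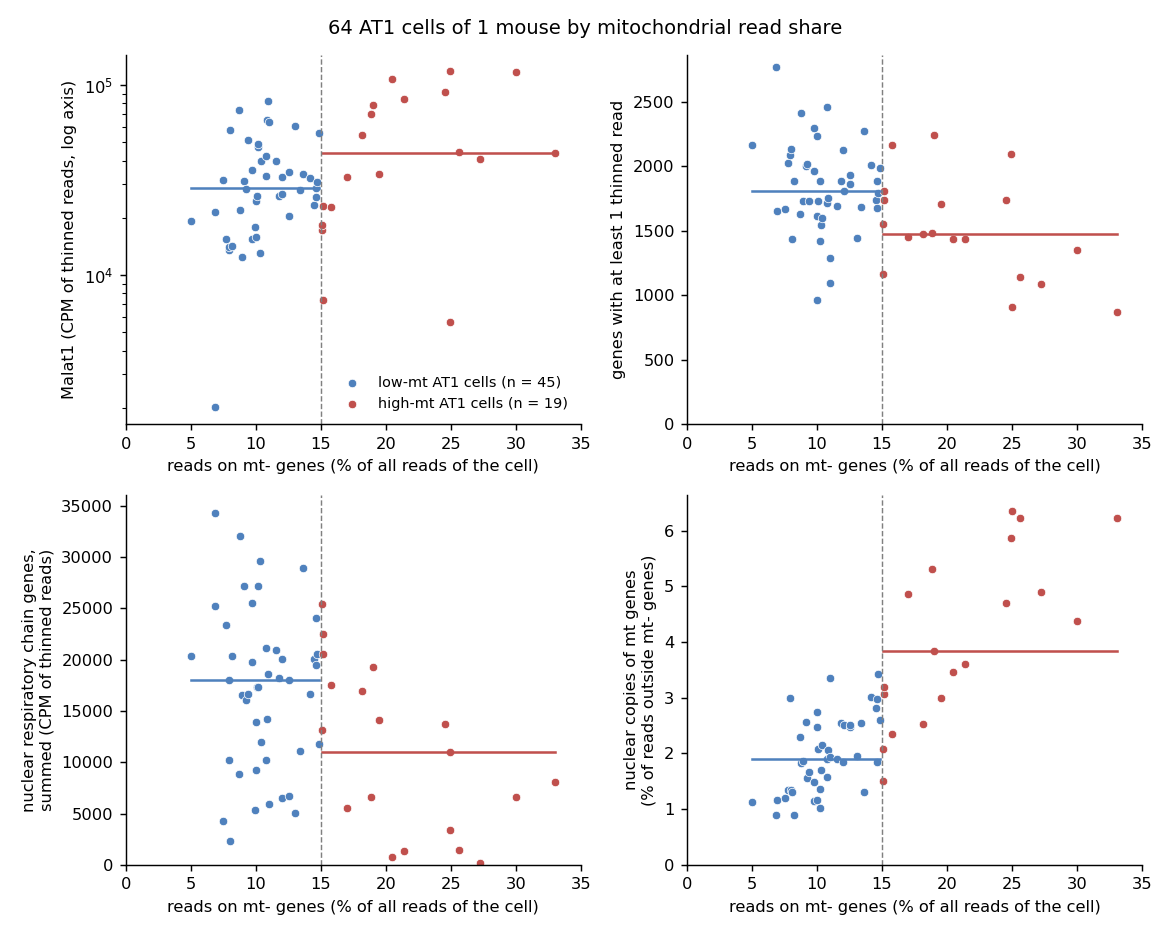
Each point is 1 of 64 AT1 cells, placed by its mitochondrial share (%, dashed line at 15%), with *Malat1* (CPM, log axis), detected genes at 67000 reads, the summed CPM of nuclear respiratory chain genes and the nuclear copies (% of non-mitochondrial reads) on the vertical axes. Horizontal lines are the medians of the sides, such as 43746 against 28552 CPM for *Malat1* and 1472 against 1809 detected genes, and the cells form 1 continuous spread with no break at the limit.

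Within the sides, the cells at the top of the range had other medians than the rest, with ranges that overlapped. In the 4 bins of under 10%, 10% to 15%, 15% to 20% and 20% or more (19, 26, 10 and 9 cells), the median of *Malat1* was 19343 CPM, 32985 CPM, 27791 CPM and 84508 CPM. The 10 cells just above the limit thus had a lower *Malat1* median than the 26 cells just below it. Detected genes had medians of 1967, 1771, 1633.5 and 1349 in the same order. The summed level of nuclear respiratory chain genes was 18000 CPM, 17724 CPM and 17216 CPM in the first 3 bins and 3403 CPM in the last. The nuclear copies took 1.34%, 2.12%, 3.03% and 4.90% of non-mitochondrial reads.

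The AT1 list without *Ager* had bin medians of 61537 CPM, 64172 CPM, 67679 CPM and 53493 CPM. The 9 cells at 20% or more also had the lowest median depth, 192294 non-mitochondrial reads against 459499 reads in the lowest bin, although 1 of them had 490184 reads, and the part of depth in these values beyond the thinning was not tested. They lay in 7 columns of the chip, 3 of the cells in columns 1 to 10. Their *Malat1* levels were 5657, 40955, 43746, 44343, 84508, 91851, 106970, 116493 and 117687 CPM, so 1 of the 9 was low and 5 were above every low-mt cell.

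Over the 64 cells, the Spearman correlation of *Malat1* with the mitochondrial share was 0.41 (0.38 with the 2 most distant cells on the share axis removed), 0.55 within high-mt and 0.37 within low-mt cells. That of detected genes was -0.37, and that of the respiratory chain sum -0.35, with -0.65 within high-mt and -0.07 within low-mt cells. *Ager* stood at -0.00. These are descriptions over cells of 1 mouse, and depth, at -0.34, moved with the share as well.

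Of 17099 genes outside the mt- group, 3893 had a mean of at least 50 CPM over both sides and are called measured. Of these, 735 genes (18.9%) were 2-fold or more higher in high-mt cells and 1260 (32.4%) 2-fold or more lower, together 51.2%, with a median log2 difference of -0.24. Most of this large share came from genes seen in few cells: of genes between 50 and 100 CPM 62.1% passed 2-fold, of genes between 500 and 2000 CPM 16.7%, and of the 41 genes from 2000 CPM 17.1%, or 10.8% with the 4 nuclear copies among the latter left out. Without its highest cell, 830 of the genes past 2-fold (41.6%) no longer passed. Genes that stayed past 2-fold without that cell and kept their direction in both parts of the chip numbered 161 higher (4.14%) and 888 lower (22.8%).

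The split between higher and lower depended on the scaling. Among genes past 2-fold, 36.8% were higher with the thinned library size, 54.4% with TMMwsp factors of edgeR and 57.6% with DESeq2 factors. The median of all genes was then 0.23 and 0.39 in place of -0.24, and it was -0.13 with scran factors and -0.41 when mitochondrial reads were kept in the library size. With the sides divided at 10% in place of 15%, 60.3% of genes past 2-fold were higher. It depended on the minimum as well: since 45 of the 64 cells are low-mt, a gene seen in low-mt cells alone reaches a mean of 50 CPM over all cells more easily than one seen in high-mt cells alone. With the minimum set on the mean of the means of both sides, so that each side weighs the same, 3812 genes were measured, of which 25.3% (963) were higher and 24.9% (951) lower, together 50.2%, with a median of 0.02. The larger number of lower genes is therefore not read as a result. Genes counted as past 2-fold are so by the log2 difference itself, and a list's median can be read beside the median of all genes.

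**Figure D3:**
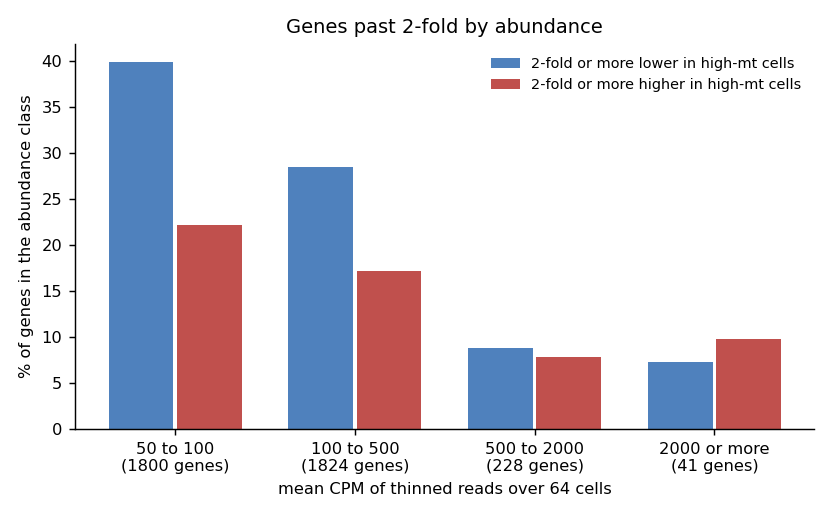
Percentage of measured genes that were 2-fold or more lower or higher in high-mt AT1 cells, in 4 classes of mean CPM. The bars fall from 62.1% of genes in both directions together at 50 to 100 CPM to 16.7% at 500 to 2000 CPM and 17.1% from 2000 CPM, where 4 of the 41 genes are nuclear copies of mitochondrial genes.

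AT1 genes differed little between the sides with the limit at 15%, and some were lower in the cells at 20% or more. None of the 29 genes of the list without *Ager* was 2-fold apart in either direction at 15%, beside 51.2% of all measured genes and 16.7% of those of at least 500 CPM (8.18% higher and 8.55% lower), the class that holds 27 of the 29. None was 2-fold apart at a limit of 10% either (44.7% of all genes), but at 20% 7 were lower and *Scnn1g* was higher (27.6% in both directions, beside 74.3% of all genes). Those 7 were *Aqp5*, *Gprc5a*, *Clic5*, *Sema3e*, *Timp3*, *Tspan8* and *Cldn18*. All measured genes include many with few reads, which pass 2-fold more often. The share among genes of at least 500 CPM was not computed at 10% or 20%, so the shares there are of unlike genes. At 15%, values below 0 numbered 19 and values above 0 numbered 10. Their log2 differences ran from -0.95 for *Flrt3*, an adhesion molecule, to 0.997 for *Scnn1g*, a subunit of the epithelial sodium channel. The median was -0.20, which turned to 0.23 with TMMwsp and 0.49 with DESeq2 factors, close to the median of all genes in each case. The 3 members with the most reads were *Ahnak*, a large scaffold protein, at 0.53, *Hopx*, a transcriptional cofactor, at -0.17, and *Vegfa*, a growth factor for endothelial cells, at 0.42.

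Some AT1 genes leaned further, and the following were picked after their values were seen. *Clic5*, a protein of the cell cortex, had a median of 2164 CPM in high-mt and 4164 CPM in low-mt cells (log2 difference -0.79, 27.3% of pairs), and its mean through the 4 bins of mitochondrial share was 5264, 4525, 3916 and 1569 CPM. *Timp3*, an inhibitor of metalloproteinases, had medians of 2134 and 4090 CPM (-0.69, 31.6% of pairs) and bin means of 4565, 4227, 4113 and 1143 CPM, so its difference lay mostly in the last bin. *Cldn18*, a tight junction protein, had medians of 1806 and 3134 CPM (-0.59, 31.3% of pairs) and bin means of 3185, 3130, 2700.0 and 1433 CPM. *Aqp5*, the water channel whose locus drives the reporter, had medians of 209 and 448 CPM (-0.86, 31.2% of pairs) and bin means of 739.98, 703, 567 and 206 CPM. All 4 were lowest in the 9 cells at 20% or more. On the other side stood *Scnn1g*, given above, *Limch1*, a regulator of contractility (0.63), *Lmo7* (0.47) and *Spock2*, a matrix proteoglycan (0.47), and *Vegfa* had a median of 5448 CPM against 3896 CPM and 63.6% of pairs. The ranges of the sides overlapped for all of these.

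Respiratory chain genes of the nucleus had lower levels over all high-mt cells, opposite in direction to the mitochondrial reads by which the cells were chosen. Their median sum was 3403 CPM in the 9 cells at 20% or more. At 15% to 20% it was 17216 CPM, close to the 17724 CPM of low-mt cells at 10% to 15%. Of 90 respiratory chain genes listed, 69 were measured; 32 (46.4%) were 2-fold or more lower and 4 higher, beside 32.4% and 18.9% of all measured genes. Of the 32, 25 kept this without their highest cell and in both parts of the chip, and none of the 4 did. Among all measured genes, 888 of the 1260 lower and 161 of the 735 higher ones kept it. *Ndufs3* and *Sdhd*, among the 32, had no read in any high-mt cell and so passed the minimum through low-mt cells alone. *Atp5c1* and *Ndufa11*, also among the 32, were 2-fold or more higher with the sides divided at 10%. The 4 higher respiratory chain genes were *Cox6c*, *Ndufaf7*, *Ndufc1* and *Ndufs1*, of which *Ndufaf7* was 2-fold or more lower with the sides divided at 20%. The median log2 difference was -0.95, that is -0.71 relative to the median of all genes, and it was below 0 under each scaling (-0.48 with DESeq2, -1.04 with mitochondrial reads in the library size) and in both parts of the chip (-0.93 and -1.28). With the sides divided at 10% it was -0.37, with 17.4% of genes lower and 10.1% higher beside 17.7% and 26.9% of all genes, so the share lower was that of all genes. At 20% it was -5.24, beside -1.52 for all genes, with 81.2% lower beside 54.7% of all genes and 2 genes (2.90%) higher beside 19.6%. The size of that median depends on the pseudocount, since genes with few or no reads in the 9 cells enter it, and it is not read as an exact value. With equal weight of the sides in the minimum, 28 of 66 (42.4%) were lower and the median was -0.80.

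The summed level of these genes ran from 149 to 25388 CPM in high-mt cells (median 10955) and from 2299 to 34328 CPM in low-mt cells (median 18000), with the high-mt cell higher in 29.5% of pairs. The ratio of these medians turned to 1.03 with DESeq2 factors. Within the 11 chip columns the mean sum was higher on the high-mt side in 3, with a mean log2 difference over columns of -1.08. *Cox4i1*, a complex IV subunit and the member with the most reads, had a median of 0 in high-mt cells, where 9 of 19 had a read, and of 776 CPM in low-mt cells, where 32 of 45 did. Its means were 411 and 1288 CPM, a log2 difference of -1.65 that ranged from -0.70 in columns 1 to 10 to -3.83 in columns 11 to 20. Through the 4 bins of mitochondrial share its mean was 1448, 1172, 766 and 16.6 CPM.

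Other members with many reads differed less over all cells. *Cox6b1*, also of complex IV, had a log2 difference of -0.09 and medians of 343 and 731 CPM. Its mean through the same bins was 857, 988, 1519 and 161 CPM, so it too was low in the cells at 20% or more. *Uqcr11* and *Uqcr10*, small subunits of complex III, stood at 0.06 and -0.28. *Cox8a*, a complex IV subunit with fewer reads, was seen in 3 of 19 high-mt and 26 of 45 low-mt cells (37.7 against 252 CPM, log2 difference -2.71).

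Genes for mitochondrial ribosomal proteins, which make up the ribosome of the organelle, had a median log2 difference of -0.83. Of 76 listed, 34 were measured, 16 (47.1%) lower and 5 (14.7%) higher, beside 32.4% and 18.9% of all measured genes. The median moved with the limit, to -0.53 at 10% and -5.82 at 20%, and with the part of the chip, to -3.39 in columns 1 to 10 and -1.80 in columns 11 to 20, beside 0.083, -1.52, -0.53 and -0.44 for all genes. As for respiratory chain genes, the size of the value at 20%, with 9 high-mt cells, depends on the pseudocount and is not read as exact. With equal weight of the sides in the minimum, 11 of 29 (37.9%) were lower and 5 higher (17.2%), with a median of -0.67. Under the minimum over all 64 cells, 11 of the 16 and none of the 5 kept this without their highest cell and in both parts of the chip. That stands beside 888 of the 1260 lower and 161 of the 735 higher among all measured genes. *Mrpl41*, *Mrpl57*, *Mrps14* and *Mrps25* had no read in any high-mt cell and so passed the minimum through low-mt cells alone. For *Mrps14* this was 0 of 19 cells against 12 of 45 low-mt cells and a mean of 115.8 CPM. Set against the 3 reads that a count of 0 allows over all high-mt cells, this was at least 49.1-fold lower. *Mrps21* was seen in 1 of 19 and 22 of 45 cells (log2 difference -3.41, 28.01% of pairs).

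The other lists of mitochondrial genes were small, and stand beside the 32.4% lower and 18.9% higher of all measured genes. Of 9 measured genes for protein import into mitochondria, 4 were lower (44.4%) and none higher (median -0.53), with *Timm13*, a chaperone of the intermembrane space, at -1.37. Of 11 genes of the citric acid cycle, 5 were lower (45.5%) and 3 higher (27.3%; median -0.60); *Mdh2*, malate dehydrogenase, stood at -0.13 and *Ogdh*, of the oxoglutarate dehydrogenase complex, at -2.13. Genes for mitochondrial dynamics and mitophagy split evenly, with 3 of 9 lower and 3 higher (median -0.58), among them *Sqstm1*, an autophagy receptor, at -1.14. Only *Polg*, the mitochondrial DNA polymerase, at 0.87, and *Slirp*, an RNA-binding protein, at -0.83, were measured among genes that express the mitochondrial genome. Each was seen in 7 or fewer low-mt cells. Their directions turned with the limit: at 10% *Slirp* was 2-fold or more higher and *Polg* lower, and at 20% both were lower. The medians of import, citric acid cycle and dynamics genes stayed below that of all genes under each scaling tried. With equal weight of the sides in the minimum, however, that of the citric acid cycle was 0.10, above the 0.02 of all genes. In chip columns 1 to 10 they stood 0.0037, 0.086 and 0.50 above it, and that of dynamics genes stood 0.19 above it with the sides divided at 20%.

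**Figure D4:**
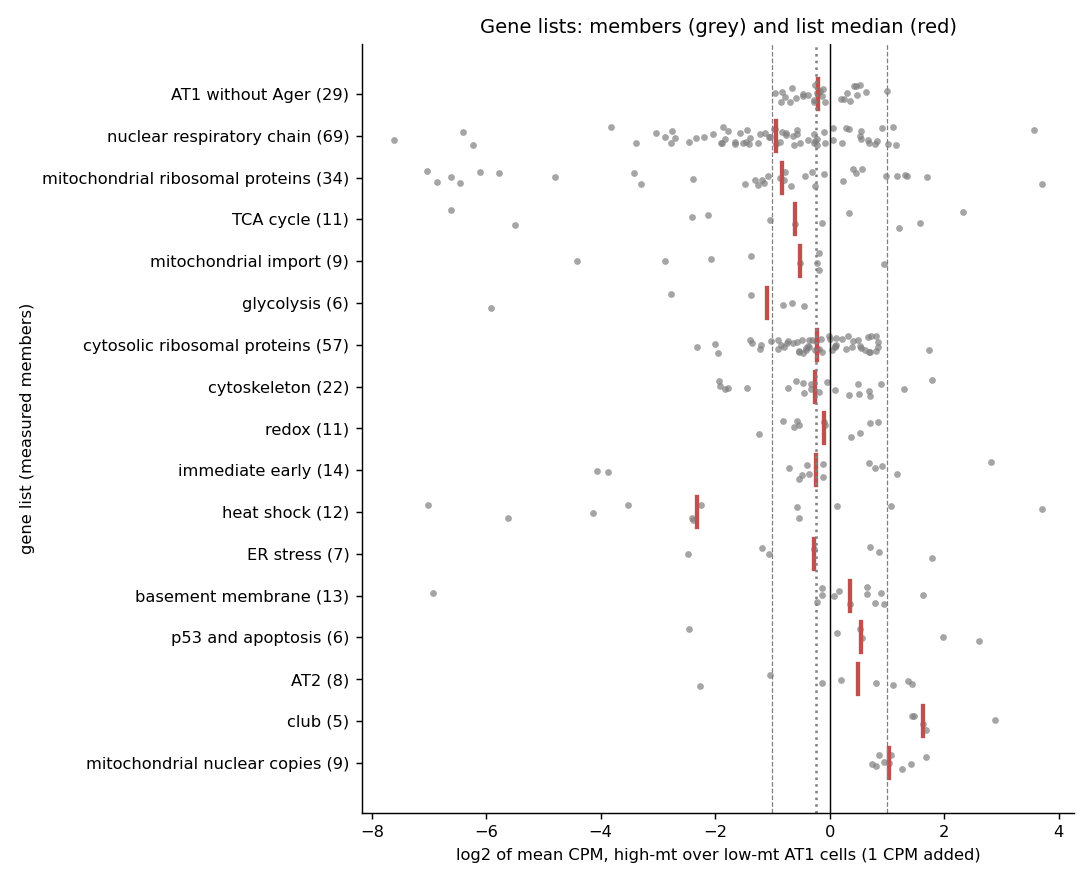
Log2 difference between high-mt and low-mt AT1 cells for the measured members of each gene list (grey points) with the list's median (red), the median of all measured genes (dotted line, -0.24) and 2-fold in either direction (dashed lines). The medians of heat shock (-2.32), glycolytic (-1.09), respiratory chain (-0.95) and mitochondrial ribosomal protein genes (-0.83) lie farthest to the left. Those of club cell genes (1.63) and nuclear copies (1.04) lie farthest to the right. The AT1, cytosolic ribosomal protein, cytoskeleton, immediate early, ER stress and redox medians turn positive with TMMwsp or DESeq2 factors.

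Genes of the cytoplasm's own ribosome and of the cytoskeleton were close to the median of all genes. Of 57 measured cytosolic ribosomal proteins, 8 were lower (14.04%) and 1 higher (1.75%), beside 32.4% and 18.9% of all measured genes, with a median of -0.23 that turned to 0.47 with TMMwsp and 0.62 with DESeq2 factors; their summed medians were 14418 and 14597 CPM. Through the 4 bins of mitochondrial share the median sum was 15388, 14276, 14851 and 8731 CPM, so it too was lower in the cells at 20% or more. The 4 with the most reads were *Rps15* at 0.03, *Rps4x* at 0.33, *Rpl41* at 0.61 and *Rplp1* at -0.23. Of 22 cytoskeleton genes, 5 were lower (22.7%) and 2 higher (9.09%), and the median of -0.25 turned to 0.48 and 0.82 with the same factors. *Actb*, beta-actin, had a log2 difference of 0.34, whereas *Actg1*, gamma-actin, stood at -1.77. *Tmsb4x*, which binds free actin, had medians of 2299 and 4134 CPM (-0.60).

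Among single genes lower in high-mt cells, the 12 with the lowest share of pairs were as follows. *Npr2*, the receptor for C-type natriuretic peptide (chr4:43631935-43651244), was seen in 3 of 19 high-mt and 33 of 45 low-mt cells, at means of 21.2 and 353 CPM and 18.5% of pairs. Its mean through the 4 bins of mitochondrial share was 96.6, 539.6, 40.3 and 0 CPM, and with the sides divided at 10% the log2 difference turned to 1.72. *Rgcc*, a regulator of the cell cycle (chr14:79288756-79301645), had a median of 89.6 CPM in high-mt cells (0 to 791) and 866 CPM in low-mt cells (0 to 5955). Its log2 difference was -2.41 (-2.60 to -2.24), with 21.3% of pairs. *Fgf1*, a growth factor without a secretion signal, had medians of 119.4 and 642 CPM and a log2 difference of -1.97.

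*Anxa5*, an annexin that binds phosphatidylserine (chr3:36448923-36475894), had a median of 179 CPM in high-mt cells (0 to 2627) and 2343 CPM in low-mt cells (0 to 11493). Its log2 difference was -1.78 (-1.88 to -1.69), with 24.04% of pairs. *S100a6*, a calcium-binding protein (chr3:90612882-90624181), had medians of 657 and 2493 CPM and stood at -1.21. *Cadm1*, a cell adhesion molecule (chr9:47530173-47857637), had medians of 478 and 2075 CPM and stood at -1.23. For all of these genes the sides overlapped, since each had high-mt cells above the low-mt median or low-mt cells at 0.

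*Laptm4b*, a lysosomal membrane protein, was nearly absent from high-mt cells, with 5 reads in 3 of 19 cells against 27 of 45 low-mt cells, and a log2 difference of -6.06 (-8.004 to -5.15). *Ece1*, the endothelin-converting enzyme, was seen in 5 and 30 cells (-2.89). *Dusp7*, a phosphatase of the ERK pathway, was seen in 7 and 36 cells (-1.35, and 0.087 with the sides divided at 10%). *Pxdc1* stood at -1.49, and *Actg1* and *Cox8a*, given above, complete the 12. By the rule that chose them, each kept its direction in both parts of the chip and passed 2-fold without its highest cell, so their values are a description. With the sides divided at 10%, 3 of the 12 (*Rgcc*, *Laptm4b* and *Ece1*) stayed 2-fold or more lower, 7 were lower by less (*Anxa5* at -0.35, *Fgf1* at -0.62, *S100a6* at -0.57, *Cadm1* at -0.54, *Actg1* at -0.73, *Cox8a* at -0.39 and *Pxdc1* at -0.32), and 2 turned. With the sides divided at 20%, all 12 were 2-fold or more lower.

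Through the 4 bins, several of these genes went down step by step. The mean of *Rgcc* was 1520.0, 882, 312 and 109.5 CPM from the lowest to the highest mitochondrial share, and that of *S100a6* 3123, 2718, 1703 and 745 CPM. The mean of *Anxa5* was 2549.9, 2874, 1022 and 542 CPM, with no difference in that direction between the 2 low-mt bins.

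The 12 genes higher in high-mt cells rested on fewer cells. *Skiv2l*, the helicase of the SKI complex in cytoplasmic RNA decay (chr17:34839228-34850210), was seen in 8 of 19 high-mt and 3 of 45 low-mt cells, with means of 307 and 1.33 CPM and 68.4% of pairs. *Mfge8*, a secreted glycoprotein that binds phosphatidylserine (chr7:79133768-79149060), was seen in 12 and 17 cells, with means of 656 and 139.97 CPM and a log2 difference of 2.22 (2.06 to 2.401). *Pgs1*, which makes the first step of cardiolipin synthesis in mitochondria (chr11:117986292-118024011), was seen in 9 and 7 cells at means of 1485 and 263 CPM (2.49). The mean of *Pgs1* through the 4 bins was 182, 322, 316 and 2784 CPM, the last with reads in 3 of 9 cells, so its difference rested mostly on those 3 cells. For all 3 the median low-mt cell had no read, and for *Skiv2l* and *Pgs1* neither did the median high-mt cell.

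*Rpn2* (log2 difference 2.14, 11 and 20 cells) and *Magt1* (1.13, 10 and 7 cells) both encode parts of the oligosaccharyltransferase, which attaches sugars to proteins in the endoplasmic reticulum. *Slc39a13*, a zinc transporter, stood at 3.39 (2.79 without its highest cell), and *Slc24a3*, a sodium, calcium and potassium exchanger, at 1.85 (1.13 without it). The mean of *Slc24a3* through the 4 bins was 38.5, 84.4, 415 and 39.8 CPM, and with the sides divided at 20% the difference turned to -1.67. *Atp8a1*, a lipid flippase, stood at 1.72, *Bclaf1*, a nuclear protein, at 3.16, and *Pet100*, an assembly factor of complex IV, at 1.74. For *Pet100* the value was 1.02 without its highest cell. *Golga3*, a golgin, stood at 6.71 with 51.4% of its reads in 1 cell, and *Adamts10*, a metalloproteinase, at 3.04 with 41.2% in 1 cell. With the sides divided at 10%, 10 of the 12 stayed 2-fold or more higher, and *Atp8a1* (0.61) and *Pet100* (0.32) did not.

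**Figure D5:**
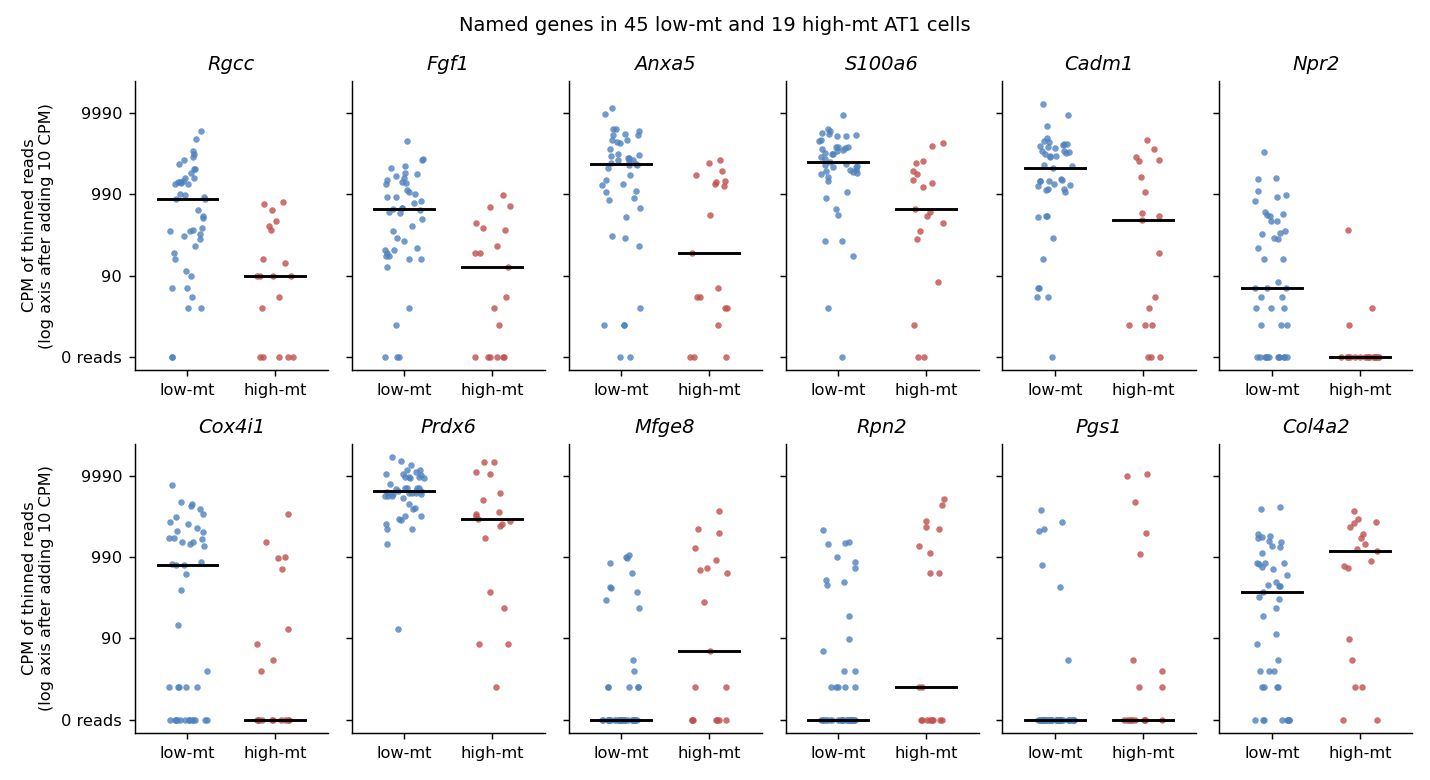
CPM of 12 genes in each of the 19 high-mt and 45 low-mt AT1 cells (points, on a log axis after adding 10 CPM), with the median of each side as a black line. *Rgcc*, *Fgf1*, *Anxa5*, *S100a6* and *Cadm1* have lower medians in high-mt cells (89.6 against 866 CPM for *Rgcc*), whereas *Mfge8*, *Rpn2* and *Pgs1* differ through a part of the high-mt cells.

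The genes whose level followed the mitochondrial share most closely over the 64 cells, by Spearman correlation, were *Malat1* (0.41), *Tnrc6b* (0.40), *Atp13a4* (0.39), *Adamts10* (0.36) and *Ino80d* (0.35). Of these, *Tnrc6b*, a partner of Argonaute in miRNA silencing, was seen in 12 of 19 high-mt and 9 of 45 low-mt cells, whereas *Atp13a4*, a transport ATPase, was seen in 5 and 1 cells. *Ino80d*, of a chromatin remodelling complex, had 49.6% of its reads in 1 cell. At the other end stood *Laptm4b* (-0.56), *Rgcc* (-0.51), *Mrps14* (-0.46), *Dusp1* (-0.46) and *Tppp3* (-0.45). *Dusp1*, an early response phosphatase, had medians of 14.9 CPM in high-mt and 522 CPM in low-mt cells. The nuclear copies were left out of this ranking, and *Gm10925* alone had 0.74.

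Across the stress and signalling lists there was no common direction, although most heat shock genes were lower. The counts of the lists that follow stand beside 18.9% higher and 32.4% lower among all measured genes, and most of these lists are small. Of 14 immediate early genes, *Klf2* and *Klf6* were higher and *Atf3* and *Fosb* lower, with a median of -0.24 that turned to 0.55 with TMMwsp factors. *Klf6* had medians of 642 and 299 CPM (log2 difference 1.17, and 0.68 without its highest cell), *Ier3* of 29.9 and 358 CPM (-0.53), and *Fos* stood at 0.92 with all cells and -0.33 without its highest cell. None of the few higher members of the immediate early, heat shock and p53 lists stayed past 2-fold without the highest cell and kept its direction in both parts of the chip. Of all 735 higher genes, 161 did.

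Of 12 heat shock genes, 7 were lower (58.3%) and 2 higher (16.7%). The 7 were *Hspa1b*, *Hsph1*, *Dnajb1*, *Hspb1*, *Hspe1*, *Hspd1* and *Hspb8*. All 7, and neither of the 2, kept this without their highest cell and in both parts of the chip. Of all 1260 lower genes, 888 did. *Hspe1* had no read in any high-mt cell and so passed the minimum through low-mt cells alone. With the sides divided at 10%, 4 were lower (33.3%) and 1 higher (8.33%), beside 17.7% and 26.9% of all genes. *Hsp90aa1*, an inducible chaperone, had medians of 925 and 418 CPM (1.08, and 0.82 without its highest cell). Its constitutive relative *Hsp90ab1* had medians of 194 and 940.3 CPM (-0.53). *Hspa1a* stood at 3.71, but 1 high-mt cell held 80.05% of its reads and the value was -0.36 without it. *Hsph1* was seen in 4 of 19 and 12 of 45 cells (-5.63). The summed heat shock level therefore had a higher mean in high-mt cells (4335 against 3614 CPM) but a lower median (1896 against 3119 CPM), and the median log2 difference of the list was -2.32. Through the 4 bins the median sum was 4388, 2321, 1567 and 4269 CPM, so it had no single direction along the mitochondrial share. That median was -0.10 with the sides divided at 10% and -0.54 in chip columns 11 to 20.

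Of 7 genes of the endoplasmic reticulum stress response, 3 were lower (*Atf4*, *Manf* and *Xbp1*) and *Herpud1* was higher (1.80, and 0.98 without its highest cell). With the sides divided at 10%, *Xbp1* turned to 2-fold or more higher and no other member was past 2-fold. *Hspa5*, the main chaperone there, had a higher mean in high-mt cells (log2 difference 0.70) but a lower median (59.7 against 448 CPM). The list's median of -0.28 turned to 0.26 with TMMwsp factors, and the parts of the chip gave -2.43 (columns 1 to 10) and 1.24 (columns 11 to 20). Of 6 genes of the p53 and apoptosis list, *Mdm2* and *Trp53inp1* were higher and *Gadd45b* lower. The median of that list was 0.55 and stayed above 0 under each scaling. With the sides divided at 20%, however, *Trp53inp1* was 2-fold or more lower. At 10%, neither *Mdm2* nor *Gadd45b* was past 2-fold. *Mcl1*, a survival factor, had means of 1133 and 762 CPM.

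In metabolism and defence against oxidants, 3 of 6 glycolytic genes were lower, beside 32.4% of all measured genes, and none higher (median -1.09). *Aldoa*, aldolase A, was seen in 8 of 19 and 26 of 45 cells (log2 difference -0.66). The summed glycolytic level had medians of 104.5 and 1194 CPM, with 28.2% of pairs. Through the 4 bins of mitochondrial share its median was 1090, 1216, 328 and 74.6 CPM, with no fall between the 2 low-mt bins. With the sides divided at 10%, 1 of 6 (16.7%) was lower, beside 17.7% of all genes. At 20% 4 were (66.7%), beside 54.7%. With equal weight of the sides in the minimum, 2 of 5 (40%) were lower, beside 24.9%. Of 11 redox genes only *Sod2* was past 2-fold, on the lower side, and the median of -0.09 turned to 0.06 with TMMwsp factors. *Prdx6*, a peroxiredoxin, had medians of 2940.3 and 6448 CPM (-0.63, 28.3% of pairs), whereas *Fth1*, ferritin heavy chain, stood at 0.38.

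Basement membrane genes had a median of 0.36 over 13 measured members, of which 1 each way (7.69%) was past 2-fold. *Lamb2* was the higher one, and *Col4a6* the lower, with no read in high-mt cells. *Col4a2*, the chain that pairs with *Col4a1* in the common form of collagen IV, had medians of 1164 and 358 CPM (log2 difference 0.90, 65.2% of pairs), and *Col4a1* had 552 and 284 CPM (0.66). *Col4a3* and *Col4a4*, chains of the collagen IV form found in the alveolar basement membrane, stood at -0.14 and -0.23. The median of the list was above 0 under each scaling but -0.34 in chip columns 11 to 20 and -0.053 with the sides divided at 20%.

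Markers of other cell types were low in most cells of both sides. Of 16 AT2 genes 8 were measured, 3 of them higher and 2 lower. Their summed level had medians of 985 and 851 CPM, and *Sftpc*, surfactant protein C, had a median of 134.3 CPM on both sides; 1 high-mt cell passed 100 CPM in at least 50% of the list. For the club cell list 2 high-mt and 3 low-mt cells did so. All 5 measured club cell genes were higher in mean, with a median log2 difference of 1.63, but the medians of their summed level were 328 and 343 CPM. The means of 3017 and 938 CPM rested on 3 high-mt cells with 16806, 14000 and 11403 CPM, and *Scgb1a1*, the club cell secretory protein, held the most reads. With those 3 cells left out at the same depth, *Malat1* had a log2 difference of 0.83.

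Of the ciliated cell list only *Sec14l3* and *Tppp3* were measured, and neither was 2-fold apart. The summed level had medians of 2537 and 3597 CPM, *Foxj1*, which defines ciliated cells, had 1 read in all, and *Tmem212* and *Cdhr3* had none. No basal, endothelial, leukocyte, fibroblast or red cell gene was measured. *Krt14*, *Kdr*, *Cldn5*, *Ptprc* and *Hba-a1* had no read in either side, although only 1 of 10 leukocyte and 2 of 5 red cell genes were listed. The part of other cell types in the differences was not tested, apart from the values given without the cells that carried their markers. Of the 2 genes that overlap ribosomal RNA sequence and were measured, *Gm26917* stood at 0.42 and *Lars2* at -0.14, and neither was past 2-fold.

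Cells outside the AT1 group, which include airway and AT2 cells, were split at the same 15% for comparison. There 30 high-mt and 47 low-mt cells had *Malat1* medians of 19828 and 8448 CPM (log2 difference of means 1.44), against 0.69 in AT1 cells. Among them, cells with at least 10000 CPM of *Sftpc* made up 15 of the 30 high-mt and 11 of the 47 low-mt cells, so the mix of cell types differed between the sides. In these *Sftpc* cells the *Malat1* difference was 0.98, and in the remaining 15 and 36 cells it was 1.54. *Neat1*, at 0.15 in AT1 cells, stood at 1.53 in all other cells and 2.59 in *Sftpc* cells. Its medians lay closer, at 201 and 59.7 CPM in all other cells (62.3% of pairs). In *Sftpc* cells they were 328 and 194 CPM (62.4% of pairs). *Ager* itself was higher on the high-mt side, by 1.95 in all other cells and by 2.62 in the remaining 15 and 36 cells. The part that cells just below the *Ager* limit had in these values was not tested. Detected genes had medians of 1667 and 2104 in the other cells. *Gm10925* differed by 1.98 there and by 2.22 in *Sftpc* cells, against 1.07 in AT1 cells. The median of respiratory chain genes relative to that of all genes was -0.55 in other cells, -0.55 in *Sftpc* cells and -0.71 in AT1 cells. These values come from the same mouse and chip, and whether they differ between cell types was not tested.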

How the data were processed

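The deposited matrix of read counts (17136 genes by 141 cells, 1 mouse) was used. Per the submitters' processing notes, the authors used Trim Galore, FastQC, HISAT2, featureCounts and GRCm38, with versions not given in the sources used here. Reads had 26 and 120 bases, and the counts are of reads, not of molecular identifiers. Sites with doublets were set aside by eye under the microscope; here, in place of a doublet caller, cells high in another type's markers were counted. The authors' own analysis kept cells with under 15% mitochondrial reads, so high-mt cells are ones that such a filter removes.

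Total reads ranged from 91402 to 2170760 per cell (median 419970). Columns of the matrix that matched no sample numbered 0. Members and gene lists were chosen with earlier results of these data known. Mitochondrial reads were left out, cells were thinned to 67000 reads (hypergeometric, fixed seed), and genes whose mean reached 50 CPM were compared with a pseudocount of 1 CPM; 2-fold is a description, since the cells come from 1 mouse. Intervals are exact and of Poisson type. Named genes were the 12 highest and 12 lowest by share of pairs among genes at least 2-fold apart, still so without the highest cell and with 1 direction in both parts of the chip (columns 1 to 10 and 11 to 20). To these were added up to 4 members of each list with the most reads and the 5 genes at either end of the Spearman correlation. Fitted differences of genes with no read on 1 side (151 at 0 in high-mt and 8 in low-mt cells) depend on the pseudocount; no list median moved when those genes were set to 3 reads. Nuclear copies were found with blastn 2.17.0 (at least 90% identity over 50% of the transcript) on GENCODE vM21, which held 94.0% of the gene names. Differences, but not the thinning, were also computed on simulated counts with known folds, and the outcome is not used here. The software was Python 3.11.15 with pandas 2.3.3, matplotlib 3.10.9, scipy 1.17.1 and numpy 2.4.6, and R 4.3.3, edgeR 4.0.16 (TMMwsp), scran 1.30.0 and DESeq2 1.42.0 (poscounts) for alternative size factors only. Within each of the 11 chip columns that held both sides, means were compared as a description. Alternatives covered the limits, thinning, scaling, minimum level, pseudocount, parts of the chip and single cells.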

Additional observations from a re-analysis of the deposited data

How the results depend on the processing

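All cells come from 1 mouse and 1 chip, so no value has a replicate. Thinned to 20000 reads, 755 genes were 2-fold or more higher and 1285 lower, and without thinning 726 and 1245, within 1.5 times of the 735 and 1260 at 67000 reads. The labels give the sides no shared replicate numbers; differences within chip columns are given as a description. Genes 2-fold or more higher (18.9% of measured genes, 735) were 31.7% (1242) with TMMwsp, 37.0073% (1474) with DESeq2 factors, 11.8% with a minimum of 200 CPM and 2.47% (96) on medians over cells. Genes lower (32.4%, 1260) were 17.7% (690) and 54.7% (2130) with mitochondrial limits of 10% and 20%, 50.8% (1896) for 20% or more against under 10%, 18.3% (163) with a minimum of 200 CPM and 10.9% (423) on medians. A minimum of 10 CPM gave 1587 higher and 3667 lower, and no minimum 2262 and 5231, with shares within 1.5 times. *Malat1* (0.69) kept its direction throughout: it was 0.77 and 1.12 at limits of 10% and 20%, 1.48 for the extremes, 0.56 and 0.57 with *Ager* from 2000 and 10000 CPM, 0.67 with *Ager* per non-mitochondrial reads, 0.62 on summed counts and on medians, 1.23, 0.86 and 1.38 with TMMwsp, scran and DESeq2 factors, 0.49 with mitochondrial reads in the library size, 0.73 without nuclear copies, 0.60 and 0.80 in columns 1 to 10 and 11 to 20, and 0.79 without cells high in another type's markers. *Ager* (0.11) was 0.044, -0.11 and -0.068 at those limits and extremes, -0.063, 0.20 and 0.057 with the 3 *Ager* limits, 0.23 on summed counts, 0.038 on medians, 0.53, 0.26 and 0.67 with the size factors, -0.067 with mitochondrial reads in the library size, 0.14 without copies, -0.22 and 0.42 in the 2 parts of the chip, and 0.16 without cells high in another type's markers. The ratio of detected genes (0.814) was 0.686 for the extremes and 0.745 from 3 reads. The *mt-Rnr2* difference (2.98 percentage points) was -1.75 at 10%, 1.31 for the extremes, 2.55, 2.72 and 2.80 with the *Ager* limits, 3.52 and 1.54 in the parts of the chip, 1.47 on summed reads, and 3.55 without cells high in another type's markers. The ratio of summed AT1 medians without *Ager* (0.935) was 1.04 at 10%, 1.02 with *Ager* from 10000 CPM, 1.33, 1.02 and 1.57 with the size factors, 1.04 in columns 1 to 10, and 1.03 without *Ager* and the 20 genes with the most reads; that of respiratory chain genes was 1.03 with DESeq2 factors. Among the 12 genes chosen each way by share of pairs, *Npr2* (1.72) and *Dusp7* (0.087) turned at 10% and *Slc24a3* (-1.67) at 20%. Other values of these genes moved by more than counting error in 257 cases and did not in 316. Of the list members named above as past 2-fold, *Tug1*, *Xbp1*, *Atp5c1* and *Ndufa11* turned to 2-fold or more higher at 10%, and *Trp53inp1* and *Ndufaf7* to 2-fold or more lower at 20%. List medians moved by more than 0.5 in 89 cases and did not in 381. Chosen after seeing the data, equal weight of the sides in the minimum gave 25.3% of genes higher and 24.9% lower (50.3% of those past 2-fold higher, in place of 36.8%), and counting copies as mitochondrial gave 0.56 for *Malat1*, 0.917 for detected genes and 1.05 points for *mt-Rnr2*, and leaving out 3 cells high in club genes gave 0.83, 0.13 for *Ager* and 3.67 points. Means over the 11 chip columns that held both sides, also chosen after seeing the data, were 0.22 for *Malat1*, -0.15 for *Ager*, 0.941 for detected genes and -0.52 points for *mt-Rnr2*. The causes of these shifts were not tested.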

Other observations

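Among the 269 genes of at least 500 CPM, 23 (8.55%) were 2-fold or more lower and 22 (8.18%) higher in high-mt AT1 cells. Without the highest cell of each gene, 19 of the 23 and 5 of the 22 still passed 2-fold, and all of these had 1 direction in both parts of the chip. These counts are not compared, since 1 cell weighs more in a mean over 19 high-mt cells than in one over 45 low-mt cells. The following genes from these lists were chosen after their values were seen. *Anxa1*, an annexin, had a median of 59.7 CPM in high-mt and 1015 CPM in low-mt cells (log2 difference -1.46, 28.3% of pairs). *Krt18*, an epithelial keratin, had medians of 14.9 and 179 CPM (-1.72), and *Wwc1*, a regulator of the Hippo pathway, had 29.9 and 493 CPM (-1.60). *Hes1*, a target of Notch signalling, had medians of 14.9 and 373 CPM (-1.29). *Map1lc3b*, a protein of the autophagosome membrane, had medians of 0 and 328 CPM (-1.34).

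The 5 higher genes that passed were *Gm13341* and *Gm28661*, both nuclear copies, *Pgs1*, *Scgb1a1* and *Gm12346*. Others rested on 1 cell: *Aldh1a1*, an aldehyde dehydrogenase, stood at 1.48 with all cells and -1.12 without its highest cell, which held 45.7% of its reads, and *Rbm39*, a splicing factor, at 1.13 and -0.47. *Yam1*, which has no entry in the annotation used, had a median of 21060 CPM in high-mt cells (5866 to 136955) and 14045 CPM in low-mt cells (3701 to 53702), with 70.6% of pairs and log2 differences of 1.03 with all cells and 0.74 without its highest cell.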
